A study of Mus musculus with 16 samples.

Results

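The comparison described here asks whether the change in brain gene expression that goes with a tau genotype differs between mice with and without Ch25h. For each gene it takes the difference between Tau+ and Tau- mice in Ch25h-/- animals and subtracts the same difference in Ch25h+/+ animals. This difference of differences is called the interaction below and is given on the log2 scale: a value of 0 means that tau status went with the same fold change in both Ch25h genotypes, and a negative value means that the Tau+ against Tau- ratio was smaller in Ch25h-/-. Every one of the 16 libraries of the study enters it (16 of 16), in 4 groups of 4. Mice with Ch25h are written Ch25h+/+ and mice lacking it Ch25h-/-, each either Tau- or Tau+ (CH25H_+/+_Tau_- and so on in the labels). All were female and 9 months old. The labels name neither the promoter that drives tau in Tau+ mice nor the strain or the allele of Ch25h, and they do not say whether littermates were compared. They give frontal cortex as the tissue, while the text of the series names another brain region. In these libraries the summed level of 5 cortical markers was 471 to 608 CPM (counts scaled to a common library size) and that of 4 hippocampal markers 19.9 to 31.7 CPM.

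Ch25h encodes cholesterol 25-hydroxylase, which turns cholesterol into the oxysterol 25-hydroxycholesterol. In the brain it is made mainly by microglia and other macrophages and is switched on by type I interferon and inflammatory signals. Its product holds back the SREBP2 pathway of cholesterol synthesis and can activate the LXR receptors, which drive cholesterol efflux. Aggregated tau is known to go with reactive microglia and astrocytes, complement, antigen presentation genes and interferon-induced genes, and these groups were therefore followed here.

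Depth was 15530352 to 25602500 counts per library, and CPM use TMM-scaled library sizes. Ch25h itself had 0 counts in all 8 Ch25h-/- libraries and between 0.216 and 1.26 CPM in the 8 Ch25h+/+ libraries, so no interaction can be formed for it. In 7 of the 8 Ch25h-/- libraries a ribosomal RNA transcript lay at 2289 to 5684 CPM, against 111 up to 475 CPM in the 8 Ch25h+/+ libraries. The remaining Ch25h-/- library, Tau+ replicate 1, lay at 153.5 CPM. These are called rRNA-rich and rRNA-poor libraries. Library class and Ch25h genotype can hardly be told apart. Both arms of each tau effect lie within 1 class once Ch25h-/- Tau+ replicate 1 is left out, and results without it are given below. Class and genotype then coincide fully, so those results cannot part them either. The p-values measure the spread between these libraries, and in bulk tissue fewer cells of a type and less RNA per cell cannot be told apart.

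The tau effect was lower without Ch25h for 6 of 17736 genes tested, or 0.0338%, and higher for none (edgeR quasi-likelihood test, Benjamini-Hochberg adjusted p under 0.05). The 6 genes were Ctss, H2-D1, C1qa, Lag3, Cd74 and Rps27rt. At an unadjusted p under 0.05 there were 733 genes, or 4.13%, of which 521 (2.94%) had a lower tau effect in Ch25h-/- and 212 (1.2%) a higher one. The median interaction over all genes tested was 0.015 on the log2 scale. In the same fit the tau effect in Ch25h+/+ passed the threshold for 277 genes, or 1.56%, of which 261 (1.47%) were higher in Tau+ and 16 (0.0902%) lower. The tau effect in Ch25h-/- passed it for 7 genes, or 0.0395%, 5 higher (0.0282%) and 2 lower (0.0113%). At an unadjusted p under 0.05 the tau effect called 9.38% of genes in Ch25h+/+ (6.25% higher, 3.13% lower) and 3.68% in Ch25h-/- (1.9% higher, 1.78% lower). Values below 0 made up 46.3% of all interactions, 52.2% of the tau effects in Ch25h+/+ and 47.2% of those in Ch25h-/-. These tau effects share their libraries with the interaction and are given beside it as its parts, not as separate evidence.

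**Figure D1:**
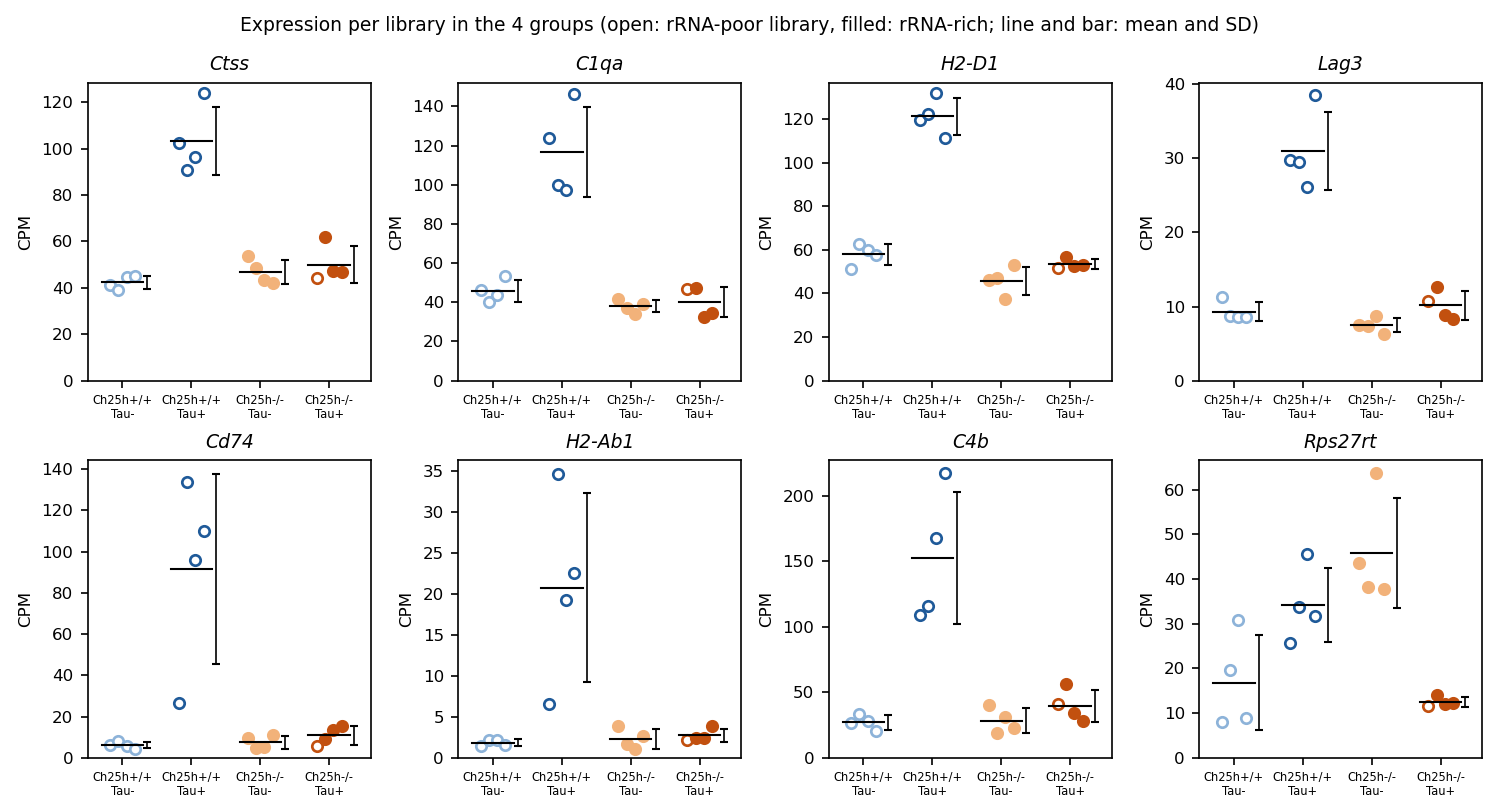
Expression (CPM, linear axis from 0) of 8 genes in each of the 16 libraries, by group, with the mean (line) and SD (bar) of 4 libraries; open symbols are rRNA-poor and filled symbols rRNA-rich libraries. For 7 of the genes the Ch25h+/+ Tau+ libraries lie above the libraries of the other groups (H2-Ab1 from 6.59 CPM and Cd74 from 26.4 CPM upward), and the remaining gene, Rps27rt, is low in Ch25h-/- Tau+ (11.5 to 14.1 CPM).

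Ctss and H2-D1 are known to respond to interferon, and their promoters are printed because they hold short motifs of the kind that interferon, ETS and kappaB factors bind. RefSeq promoter windows (GRCm38.p6, 250 bases before to 50 after the start) were held for 3 of the 6 genes, Ctss, H2-D1 and Rps27rt. The runs below are the first 254 bases of the window, read 5′ to 3′ on the gene's strand, the plus strand in both, at chr3:95526536-95526789 for Ctss and chr17:35262844-35263097 for H2-D1. Capitals mark every match, on either strand, to 5 short motifs: the interferon-stimulated response element core, written as GAAA, any 2 bases and GAAA again, its closer repeat GAANNGAAA, the STAT site TTCNNNGAA, the ETS core GGAAGT and the kappaB form GGGNNTTCC.
Ctss: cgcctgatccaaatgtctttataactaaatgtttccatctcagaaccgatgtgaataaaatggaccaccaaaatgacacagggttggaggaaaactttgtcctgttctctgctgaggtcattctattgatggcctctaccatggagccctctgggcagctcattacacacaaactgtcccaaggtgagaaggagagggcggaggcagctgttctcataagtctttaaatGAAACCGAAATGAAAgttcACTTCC
H2-D1: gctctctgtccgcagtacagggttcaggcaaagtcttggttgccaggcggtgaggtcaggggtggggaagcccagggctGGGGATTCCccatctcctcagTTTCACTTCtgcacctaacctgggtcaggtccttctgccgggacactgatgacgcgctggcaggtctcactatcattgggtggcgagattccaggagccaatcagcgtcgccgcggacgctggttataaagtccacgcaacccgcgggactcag
In Ctss the capitals start 21 bases before the transcription start with GAAACCGAAA, which overlaps GAAATGAAA, and end with ACTTCC, the ETS core on the other strand. In H2-D1 they are GGGGATTCC and TTTCACTTC, which start 171 and 150 bases before the RefSeq start. The Rps27rt window held none of the 5 motifs. Among 32851 mouse promoter windows of this length, the response element core was present in 3.44%, GAANNGAAA in 7.52%, TTCNNNGAA in 8.3%, GGAAGT in 23.8% and GGGNNTTCC in 5.82%. The set of motifs was widened after the windows had been read, and a match is a description of letters, not of binding.

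Ctss, encoding cathepsin S, the lysosomal protease that trims the class II invariant chain in microglia and macrophages, lies on chromosome 3 (GRCm38, 95526786 to 95556403, plus strand). Its level was 41.4, 39.1, 44.5 and 45.1 CPM in the 4 Ch25h+/+ Tau- libraries and 103, 90.7, 96.4 and 124 CPM in Ch25h+/+ Tau+. In Ch25h-/- it was 53.6, 48.5, 43.6 and 42.0 CPM without tau and 44.1, 62.0, 47.3 and 46.8 CPM with tau. Every Ch25h+/+ Tau+ library stood above the other 12, and the Ch25h-/- groups overlapped. The tau effect was thus 2.43-fold in Ch25h+/+ and 1.07-fold in Ch25h-/-, an interaction of -1.19 log2 (SE 0.16, adjusted p = 0.0131, edgeR).

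C1qa, encoding a chain of C1q, the recognition molecule of the classical complement pathway that microglia make in the brain, lies on chromosome 4 (136895917 to 136898803, minus strand). It was at 46.3, 40.1, 43.8 and 53.2 CPM in Ch25h+/+ Tau- and at 124, 99.96, 97.2 and 146 CPM in Ch25h+/+ Tau+. The Ch25h-/- libraries held 41.4, 37.2, 34.0 and 38.9 CPM without tau and 46.7, 47.0, 32.6 and 34.5 CPM with tau. Again the Ch25h+/+ Tau+ libraries were the 4 highest of the 16, with no gap between the Ch25h-/- groups. The interaction was -1.26 log2 (SE 0.20, adjusted p = 0.0222, edgeR), with a tau effect of 1.35 log2 in Ch25h+/+ and 0.09 log2 in Ch25h-/-.

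H2-D1, a classical MHC class I heavy chain that shows peptides to CD8 T cells, lies in the MHC on chromosome 17 (35262730 to 35267499, plus strand). Its 4 Ch25h+/+ Tau- libraries were at 51.3, 62.6, 59.7 and 57.8 CPM and its Ch25h+/+ Tau+ libraries at 119.7, 122, 132 and 111 CPM. In Ch25h-/- they were at 46.1, 46.9, 37.3 and 52.8 CPM without tau and 51.8, 56.9, 52.5 and 53.3 CPM with tau. The Ch25h-/- Tau+ libraries lay close together and within reach of the highest Tau- library. The interaction was -0.84 log2 (SE 0.13, adjusted p = 0.0222, edgeR), from tau effects of 1.07 and 0.23 log2. Class I heavy chains resemble each other in sequence, so the split of reads among H2-D1, H2-K1 and the H2-Q genes is uncertain.

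Lag3, an inhibitory receptor of lymphocytes that binds class II and is also transcribed in brain, lies on chromosome 6 (124904361 to 124911705, minus strand). It was at 11.3, 8.75, 8.59 and 8.62 CPM in Ch25h+/+ Tau- and at 29.8, 29.5, 26.2 and 38.6 CPM in Ch25h+/+ Tau+. In Ch25h-/- it was at 7.53, 7.35, 8.68 and 6.36 CPM without tau and at 10.8, 12.6, 8.86 and 8.37 CPM with tau. Only the Ch25h+/+ pair of groups separated. The interaction was -1.29 log2 (SE 0.21, adjusted p = 0.0335, edgeR). The 8 T cell markers summed to 5.96 to 14.0 CPM over all libraries, and 1 of them passed the filter on low counts, with an interaction of -0.04 log2. Their part in the Lag3 result was not tested.

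Cd74, the invariant chain that escorts class II molecules to the endosome, lies on chromosome 18 (60803848 to 60812652, plus strand). It was at 6.10, 8.10, 5.74 and 4.53 CPM in Ch25h+/+ Tau- and at 26.4, 134, 95.8 and 110.04 CPM in Ch25h+/+ Tau+. In Ch25h-/- it was at 9.52, 4.88, 5.06 and 11.0 CPM without tau and at 5.67, 8.97, 13.6 and 15.6 CPM with tau. Replicate 1 of Ch25h+/+ Tau+ stood apart from its group but above all libraries of the others. The interaction was -3.41 log2 (SE 0.58, adjusted p = 0.0405, edgeR), and its tau effects were 3.91 log2 with Ch25h and 0.50 log2 without.

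Rps27rt, a near copy of the ribosomal protein gene Rps27 on chromosome 9 (114982366 to 114982739, minus strand), had another pattern. It was at 8.09, 19.6, 30.8 and 8.87 CPM in Ch25h+/+ Tau- and at 25.8, 33.8, 45.6 and 31.8 CPM in Ch25h+/+ Tau+, which overlap. In Ch25h-/- it fell with tau, from 43.7, 38.2, 63.7 and 37.8 CPM to 11.5, 14.1, 11.99 and 12.3 CPM (tau effect -1.88 log2, adjusted p = 0.0334, edgeR). The interaction was -2.90 log2 (SE 0.44, adjusted p = 0.0222, edgeR). Rps27 itself stood on the opposite side, with an interaction of 1.45 log2 (SE 0.48, adjusted p = 0.632, edgeR), between 13.4 and 54.2 CPM in Ch25h-/- Tau- and between 54.5 and 84.6 CPM in Ch25h-/- Tau+. Reads of such copies can be assigned to either, so the value of Rps27rt is uncertain.

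How firmly these calls hold differs by gene. Each of the 16 libraries was left out in turn, and Ctss stayed past the threshold in 14 of the 16 fits, Rps27rt in 14, H2-D1 in 13, C1qa in 9, Lag3 in 5 and Cd74 in 3. The interaction of each stayed below 0 throughout, from -1.32 to -1.10 for Ctss, -3.39 to -2.68 for Rps27rt, -0.94 to -0.77 for H2-D1, -1.36 to -1.14 for C1qa, -1.42 to -1.18 for Lag3 and -3.72 to -3.18 for Cd74. Without Ch25h-/- Tau+ replicate 3, or without replicate 4 of that group, no gene passed (0 by edgeR, smallest adjusted p 0.0589 and 0.0566, with 716 and 771 genes at an unadjusted p under 0.05). The count was 22 when Ch25h+/+ Tau+ replicate 1 was left out. Without Ch25h-/- Tau+ replicate 2 there were 12 genes, and 3 each without Ch25h+/+ Tau- replicate 2, 3 or 4 or without Ch25h-/- Tau- replicate 1. Without the rRNA-poor Ch25h-/- library, Tau+ replicate 1, 5 genes passed, 4 of them among the 6, and Lag3 (-1.34, adjusted p = 0.0604, edgeR) and Cd74 (-3.19, adjusted p = 0.0882, edgeR) did not. A fit with library class as a covariate is no separate check, since that 1 library is all that parts class from genotype and the values nearly repeat those without it. In it Ctss and C1qa stayed past the threshold (adjusted p = 0.0254 for each), and the other 4 did not: H2-D1 (-0.82, adjusted p = 0.0565), Rps27rt (-2.86, 0.0565), Lag3 (-1.33, 0.0618) and Cd74 (-3.17, 0.0953, edgeR). DESeq2 called 55 genes on the same counts, 51 lower and 4 higher.

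**Figure D2:**
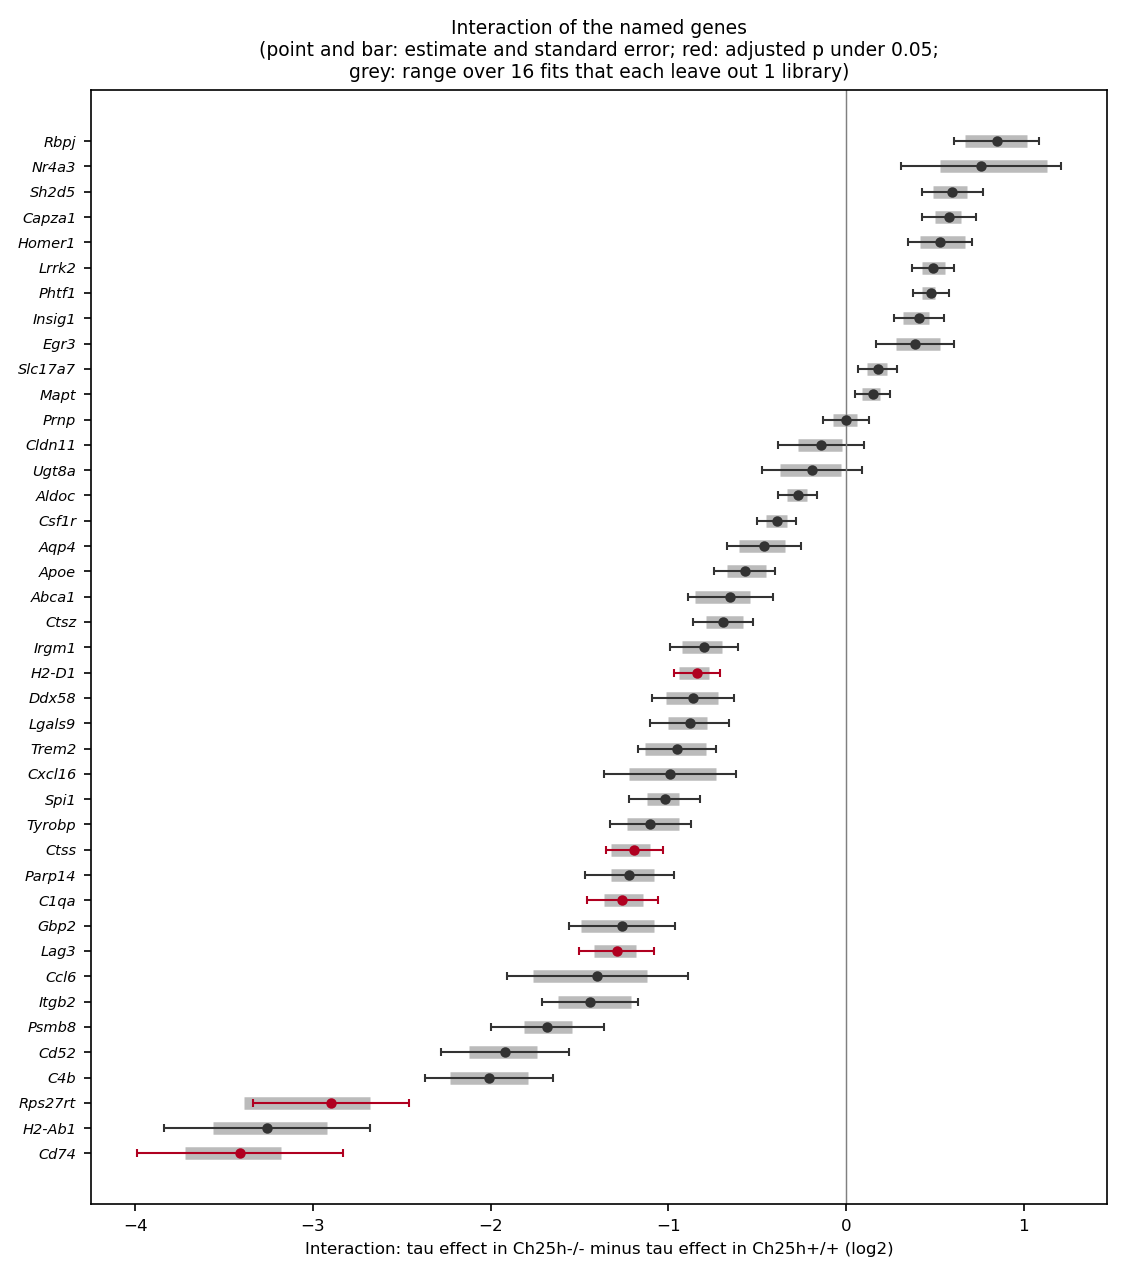
Interaction (log2; tau effect in Ch25h-/- minus tau effect in Ch25h+/+) of 41 named genes, with its standard error, in order of size; red marks the 6 genes past the threshold and grey bars span the fits that each leave out 1 of 16 libraries. Values run from -3.41 for Cd74 to 0.85 for Rbpj, Prnp sits at 0.00, and no grey bar of a red gene reaches 0.

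Just below the threshold stood 25 genes with an adjusted p of 0.054 to 0.1, of which 23 had a negative interaction and 15 belong to the gene lists used here. They are given as values only. C4b, the complement component of reactive astrocytes, had an interaction of -2.01 (SE 0.36, adjusted p = 0.054), and the class II chain H2-Ab1 one of -3.26 (SE 0.58, adjusted p = 0.054). Itgb2, the beta chain of complement receptor 3, was at -1.44, Cd52, a small surface glycoprotein of leukocytes and activated microglia, at -1.92, and the immunoproteasome subunit Psmb8 at -1.68 (adjusted p = 0.0728 for each, edgeR). Spi1, which encodes PU.1, the lineage factor of microglia, was at -1.02 (adjusted p = 0.1), with between 4.25 and 4.79 CPM in Ch25h+/+ Tau-, between 7.28 and 10.3 in Ch25h+/+ Tau+, between 3.61 and 4.41 in Ch25h-/- Tau- and between 3.44 and 4.12 in Ch25h-/- Tau+. In all of these the Ch25h+/+ Tau+ libraries lay above every library of the 3 other groups. Like the called genes, they were taken for a small interaction p, so this separation goes with the choice. Its share over all genes was not counted.

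The 18 gene lists were read by the counts of their members and their median, beside the same over all genes. Of 330 genes listed, 312 passed the filter on low counts and 5 were called (all but Rps27rt above). At an unadjusted p under 0.05, 105 had a negative interaction and 7 a positive one. Over all genes tested the corresponding shares were 2.94% and 1.2%. Those that passed the filter are not all members, and low genes could pass through the group in which they were high. Without Ch25h-/- Tau+ replicate 1 the medians were -1.12 for MHC class II, -0.38 for class I, -0.56 for complement and -0.34 for lysosome genes. Disease-associated and homeostatic microglia genes had -0.73 and -0.23, Fc receptor genes -0.69, interferon-stimulated genes -0.76 and GTPases -0.7. Reactive and homeostatic astrocyte genes had -0.87 and -0.22, chemokine genes -0.55 and checkpoint genes -0.83. Cholesterol synthesis, LXR and synapse genes had 0.18, -0.09 and 0.05.

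**Figure D3:**
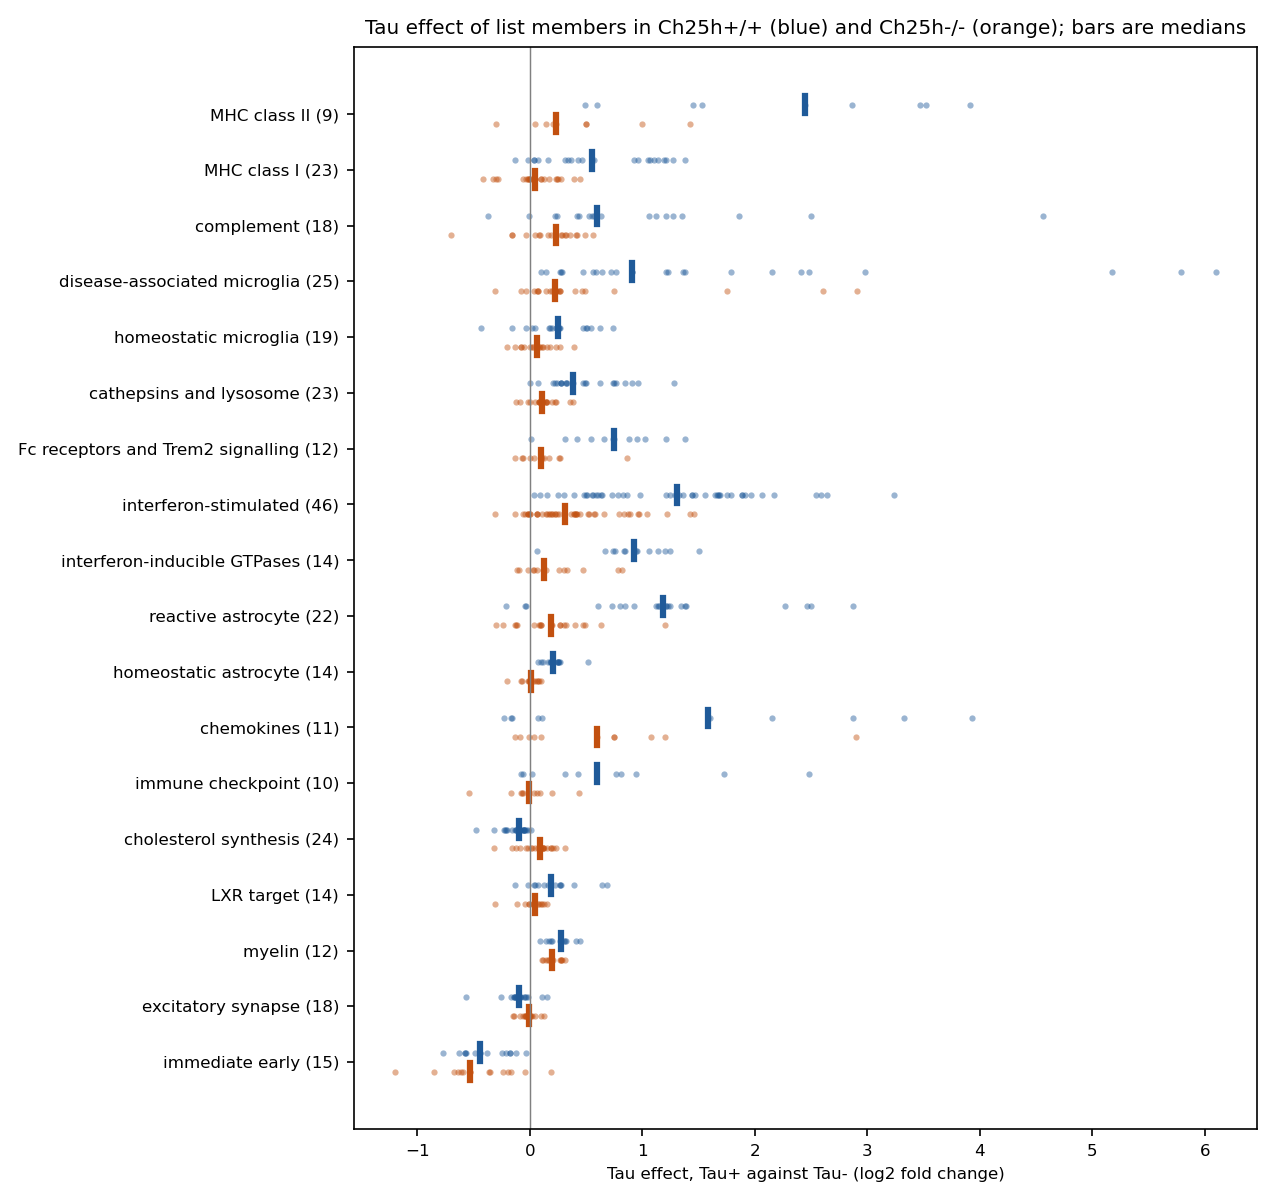
Tau effect (log2 fold change, Tau+ against Tau-) of each list member that passed the filter, in Ch25h+/+ (blue) and Ch25h-/- (orange), for 18 lists with the number of members in brackets; vertical bars are medians. The blue medians of MHC class II (2.45), interferon-stimulated (1.31) and reactive astrocyte genes (1.18) lie well to the right of the orange ones (0.23, 0.31 and 0.19), while those of myelin and immediate early genes lie close together.

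MHC class II molecules carry peptides from the endosome to CD4 T cells and are made by activated microglia and by border macrophages. Among 10 listed genes 9 passed the filter, all 9 had a negative interaction (median -1.22) and 6 had an unadjusted p under 0.05. Over the 5 members with a mean of at least 50 counts the median was -3.28. That mean is taken over all libraries and can be reached through Ch25h+/+ Tau+ alone, so this median is no separate support. Cd74 alone was called. H2-Ab1 was between 1.48 and 2.24 CPM in Ch25h+/+ Tau-, at 6.59, 34.6, 19.2 and 22.6 CPM in Ch25h+/+ Tau+, between 1.15 and 3.92 CPM in Ch25h-/- Tau- and between 2.23 and 3.87 CPM in Ch25h-/- Tau+. H2-Aa (-3.39) and H2-Eb1 (-2.36) followed the same order of groups (adjusted p = 0.1 for each, edgeR). Replicate 1 was the lowest Ch25h+/+ Tau+ library for Cd74 and for these 3 chains. Ciita, which encodes the master activator of class II transcription, had an interaction of -0.90 (SE 0.44, unadjusted p = 0.055). The tau effect in Ch25h+/+ passed its threshold for 7 members, all higher, and for 0 in Ch25h-/- by edgeR, where the list's median was 0.23 and 2 members were higher at an unadjusted p under 0.05. The summed level of 6 border macrophage markers was between 5.79 and 14.1 CPM in Ch25h+/+ Tau-, between 11.6 and 20.6 in Ch25h+/+ Tau+, between 7.11 and 16.4 in Ch25h-/- Tau- and between 8.12 and 14.8 in Ch25h-/- Tau+. Their median interaction was -0.65, with 5 of 6 below 0, 2 at an unadjusted p under 0.05 and none at 0 counts throughout, and their part in the class II values was not tested.

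The MHC class I list holds heavy chains, the light chain, peptide transporters and immunoproteasome subunits. All 23 genes passed the filter, 18 had a negative interaction (median -0.36), and 12 had an unadjusted p under 0.05, all of them negative. B2m, the light chain shared by all class I molecules, was between 60.8 and 73.4 CPM in Ch25h+/+ Tau-, between 110.5 and 138 in Ch25h+/+ Tau+, between 64.2 and 81.4 in Ch25h-/- Tau- and between 62.3 and 97.6 in Ch25h-/- Tau+. The Ch25h+/+ Tau+ libraries were again the highest. Its interaction was -0.76, and that of the heavy chain H2-K1 -0.80 (adjusted p = 0.1 for each, edgeR). Psmb8, with between 4.56 and 6.54 CPM in Ch25h+/+ Tau+ and between 1.42 and 2.77 CPM in the other 12 libraries, and the peptide transporter Tap1 (-0.91, adjusted p = 0.434, edgeR) had the same sign. The general chaperones Calr (0.11), Canx (0.01) and Pdia3 (0.07), which serve many other proteins, lay at the level of all genes.

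Of 19 listed complement genes 18 passed the filter, 14 had a negative interaction (median -0.47) and 8 an unadjusted p under 0.05. The median was -0.76 over the members with a mean of at least 50 counts, which can be reached through Ch25h+/+ Tau+ alone. Beside C1qa, the other C1q chains were at -0.70 for C1qb and -0.77 for C1qc (adjusted p = 0.299 and 0.288, edgeR). C4b was between 20.3 and 33.4 CPM in Ch25h+/+ Tau-, at 109, 116, 168 and 217 CPM in Ch25h+/+ Tau+, between 19.4 and 40.5 CPM in Ch25h-/- Tau- and between 27.9 and 56.3 CPM in Ch25h-/- Tau+. The Ch25h-/- groups overlapped, and both lay below every Ch25h+/+ Tau+ library. C3, on which the complement pathways converge, had the most negative value in the list, -5.27 (SE 1.18, adjusted p = 0.143, edgeR), and rested on few counts: 1.36, 3.20, 7.58 and 27.5 CPM in Ch25h+/+ Tau+ against 0.1008 to 0.941 CPM elsewhere. The receptor for its fragment, C3ar1, was at -1.30 (adjusted p = 0.211, edgeR). Early proteases and regulators such as C1ra (0.09), C1s1 (0.17) and Cd59a (-0.06) lay near 0.

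The disease-associated state is the programme of lipid handling, phagocytosis and lysosomal genes that microglia take up around damage, partly through the receptor Trem2 and its adaptor Tyrobp. All 25 listed genes passed the filter, 24 had a negative interaction (median -0.69) and 16 an unadjusted p under 0.05. None was called. Trem2 was at 14.5, 13.3, 12.2 and 13.4 CPM in Ch25h+/+ Tau-, 31.0, 23.7, 27.6 and 41.1 in Ch25h+/+ Tau+, 10.9, 11.5, 11.1 and 10.9 in Ch25h-/- Tau- and 12.1, 17.6, 10.6 and 12.9 in Ch25h-/- Tau+. The Ch25h+/+ groups were clearly apart, and in Ch25h-/- replicate 2 was the high Tau+ library. Its interaction was -0.95 (SE 0.22, adjusted p = 0.179, edgeR), and that of Tyrobp -1.10 (SE 0.23, adjusted p = 0.1, edgeR). Lyz2, encoding lysozyme, was at -2.57, and Csf1, a growth factor of microglia, at -0.66 (adjusted p = 0.1 for each, edgeR).

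For some defining genes of this state the Ch25h-/- Tau+ mean was set largely by replicate 2. Clec7a, a phagocytic receptor, was between 4.25 and 10.6 CPM in Ch25h+/+ Tau+, between 0.0462 and 0.422 CPM in the Tau- libraries of both genotypes, and at 0.391, 2.47, 0.227 and 0.312 CPM in Ch25h-/- Tau+. Cst7, a cystatin, was at 0.430, 3.96, 0.284 and 0.125 CPM in Ch25h-/- Tau+, against 0.241, 0, 0.241 and 0.112 CPM in Ch25h-/- Tau-. Itgax, a leukocyte integrin, was at 0.469, 2.73, 0.341 and 0.749 CPM with tau and 0.301, 0.176, 0.0603 and 0.112 CPM without. In all 3 genes replicate 2 was the highest library of its group. The other Tau+ libraries lay within the Ch25h-/- Tau- range for Clec7a, overlapped it for Cst7 and lay above it for Itgax. The fitted tau effects of Cst7 were 5.79 log2 in Ch25h+/+ and 2.91 log2 in Ch25h-/-, with an interaction of -2.88 and a wide error (SE 1.57, adjusted p = 1, edgeR). These fitted values rest on libraries with 0 counts and on replicate 2, and depend on the prior count of the fit. For Clec7a the interaction was -4.35 (SE 1.15, adjusted p = 0.309, edgeR).

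Homeostatic microglial genes had smaller values; their difference from the list above was not tested. Of 19 genes, all passed the filter, 15 had a negative interaction (median -0.25) and 4 an unadjusted p under 0.05, among them the CSF1 receptor gene Csf1r (-0.39, adjusted p = 0.421, edgeR). The purinergic receptor P2ry12 (-0.25) and Tmem119 (-0.10), both used to mark resident microglia, had unadjusted p of 0.187 and 0.459. The 5 microglial markers, all detected, summed to between 252 and 268 CPM in Ch25h+/+ Tau-, between 318 and 413 in Ch25h+/+ Tau+, between 251 and 281 in Ch25h-/- Tau- and between 249 and 304 in Ch25h-/- Tau+. They had a median interaction of -0.39, all 5 below 0 and 3 with an unadjusted p under 0.05. This sum moves in the same direction as the microglial, complement, class I and class II genes above, and its part in their values was not tested.

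All 23 genes of the cathepsin and lysosome list had a negative interaction (median -0.33), and 10 had an unadjusted p under 0.05. Beside Ctss these were led by Ctsz (-0.69, adjusted p = 0.219), the progranulin gene Grn (-0.53, adjusted p = 0.281) and Laptm5 (-0.62, adjusted p = 0.299, edgeR). The other 9 cathepsin genes ranged from Ctsh (-0.58) and Ctsd (-0.57, adjusted p = 0.455, edgeR) to Ctsf (-0.02). Of 13 Fc receptor and Trem2 signalling genes 12 passed the filter, 10 had a negative interaction (median -0.72) and 7 an unadjusted p under 0.05. The inhibitory receptor Fcgr2b was at -1.02 (adjusted p = 0.291, edgeR) while Fcgr3 stood at 0.13 (SE 0.45) and the kinase gene Syk at 0.09 (SE 0.26).

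Type I interferon acts through its receptor and a set of transcription factors on antiviral genes, and Ch25h belongs to the genes it induces. Of 47 interferon-stimulated genes 46 passed the filter, 45 had a negative interaction (median -0.80) and 22 an unadjusted p under 0.05, with 0 called by edgeR. Parp14, an ADP-ribosyltransferase, came first at -1.22 (SE 0.25, adjusted p = 0.1, edgeR), with between 1.91 and 3.11 CPM in Ch25h+/+ Tau-, between 6.74 and 8.12 in Ch25h+/+ Tau+, between 3.12 and 4.70 in Ch25h-/- Tau- and between 3.69 and 5.26 in Ch25h-/- Tau+. The RNA sensor gene Ddx58 followed at -0.86 (adjusted p = 0.33), and the transcription factor gene Irf9 had the same sign (-0.61, adjusted p = 0.955, edgeR). Lgals3bp, a secreted glycoprotein, was the member whose Ch25h-/- groups separated: 10.4 to 14.999 CPM without and 17.3 to 26.2 CPM with tau, a tau effect of 0.87 log2 (adjusted p = 0.31) beside 1.65 log2 in Ch25h+/+. It was singled out after its values had been seen.

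The tau effect of interferon-stimulated genes in Ch25h+/+ passed its threshold for 26 of 46 genes, all higher, and for 0 in Ch25h-/- by edgeR, where the median was 0.31 log2 and 10 of 46 genes were higher at an unadjusted p under 0.05, against 1.9% of all genes. Library scores of the list, the mean log2(CPM + 0.5) of its members, were between 1.77 and 2.10 in Ch25h+/+ Tau-, between 2.7 and 3.21 in Ch25h+/+ Tau+, between 1.86 and 2.11 in Ch25h-/- Tau- and 2.16, 2.57, 2.13 and 2.13 in Ch25h-/- Tau+. All Ch25h-/- Tau+ libraries thus lay above all Ch25h-/- Tau- libraries by a small margin, and replicate 2 was the highest. The interferon-inducible GTPases, which attack membranes around pathogens, gave 14 of 14 negative values (16 listed, median -0.75) and 7 with an unadjusted p under 0.05. Without Ch25h-/- Tau+ replicate 1, 12 of the 14 were negative. Gbp2 was at -1.26 (adjusted p = 0.188) and Irgm1 at -0.80 (adjusted p = 0.211, edgeR). Close paralogs in this family, such as Tgtp1 and Tgtp2, can share reads.

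**Figure D4:**
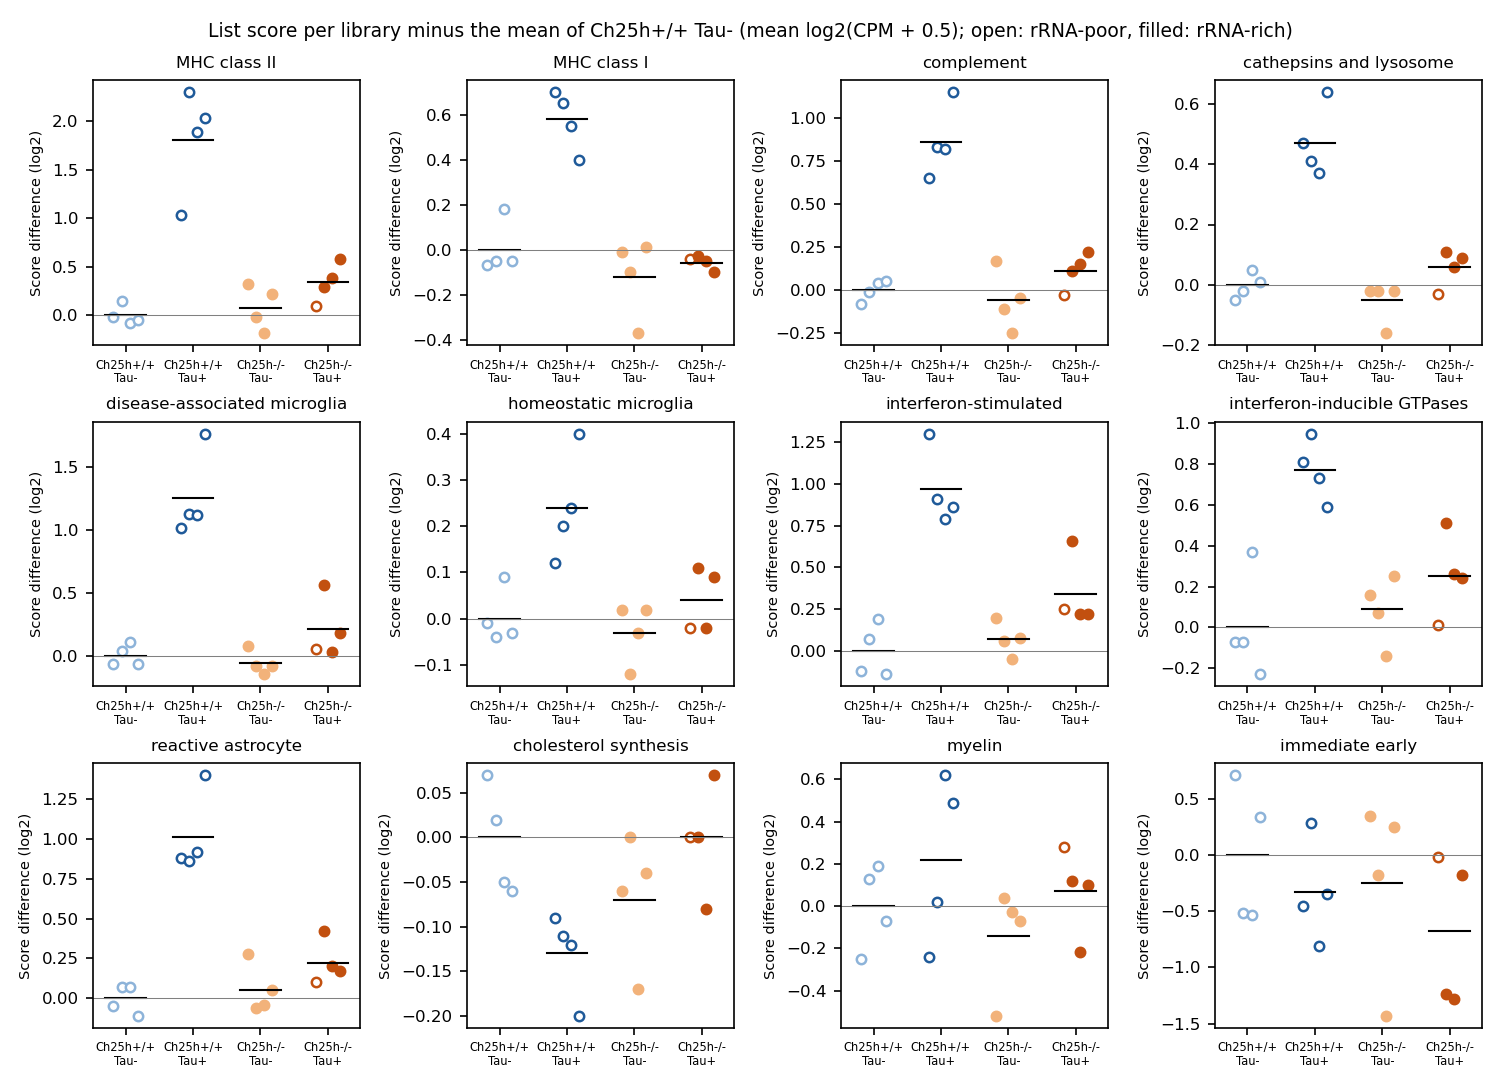
Score of 12 lists in each library, as the mean log2(CPM + 0.5) of the members minus the mean score of Ch25h+/+ Tau-; lines are group means, open symbols rRNA-poor and filled symbols rRNA-rich libraries. In the antigen presentation, complement, lysosome, disease-associated microglia, interferon-stimulated and reactive astrocyte panels the 4 Ch25h+/+ Tau+ libraries lie above all others. There the rRNA-poor Ch25h-/- Tau+ library is never the highest of its group. It is the lowest for MHC class II, complement, lysosome, GTPase and reactive astrocyte genes, and the highest for myelin and immediate early genes.

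Reactive astrocytes raise intermediate filaments, acute-phase proteins and complement. Of 23 reactive astrocyte genes 22 passed the filter, with none called. Of these, 21 had a negative interaction (median -0.95) and 13 an unadjusted p under 0.05, or 11 without Ch25h-/- Tau+ replicate 1. Gfap, the intermediate filament used to mark them, was at 131, 161, 140.2 and 122 CPM in Ch25h+/+ Tau-, 473, 637, 627 and 1312 CPM in Ch25h+/+ Tau+, 163, 108, 113 and 122 CPM in Ch25h-/- Tau- and 189, 302, 156 and 139 CPM in Ch25h-/- Tau+. Replicate 4 of Ch25h+/+ Tau+ was far above its group, and replicate 2 of Ch25h-/- Tau+ above its own. The interaction was -1.83 (SE 0.37, adjusted p = 0.1, edgeR). Serpina3n, a secreted protease inhibitor, was at -2.40 (SE 0.50, adjusted p = 0.1, edgeR), and the filament gene Vim at -1.35 (adjusted p = 0.44, edgeR).

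Homeostatic astrocyte genes keep up glutamate and water transport. All 14 had a negative interaction, but the median was -0.21 and 3 had an unadjusted p under 0.05: Aldoc (-0.27), Aqp4 (-0.46) and Gjb6 (-0.39). That count went from 0 to 7 as single libraries were left out (0 without Ch25h+/+ Tau+ replicate 4, 7 without Ch25h+/+ Tau+ replicate 1). The glutamate transporter genes Slc1a2 (-0.25) and Slc1a3 (-0.19) had errors of 0.21 and 0.15. The 5 astrocyte markers summed to between 2826 and 3108 CPM in Ch25h+/+ Tau-, between 2291 and 4136 in Ch25h+/+ Tau+, between 3139 and 3832 in Ch25h-/- Tau- and between 3249.6 and 4006 in Ch25h-/- Tau+. The Tau+ and Tau- ranges of this sum overlapped in both Ch25h genotypes. The markers had a median interaction of -0.25, with 5 of 5 below 0 and 1 at an unadjusted p under 0.05, the same direction as the reactive astrocyte list, and their part in the reactive astrocyte values was not tested.

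Of 17 chemokine genes 11 passed the filter, with 8 negative values and a median of -0.85 that was unstable: it was -0.11 without Ch25h-/- Tau- replicate 3. An unadjusted p under 0.05 with a lower tau effect was found for 2 members, and for 4 when Ch25h-/- Tau+ replicate 2 was left out. Ccl6 (-1.40, adjusted p = 0.852) and Cxcl16 (-0.99, adjusted p = 0.862, edgeR), both made by microglia and macrophages, had the smallest p, and the neuronal chemokine gene Cx3cl1 stood at 0.26 (unadjusted p = 0.032). Of 15 checkpoint genes 10 passed, 7 had a negative interaction (median -0.88, or -0.57 over the 8 members with a mean of at least 50 counts) and 5 an unadjusted p under 0.05. Beside Lag3 these were Lgals9 (-0.88), a ligand of the receptor encoded by Havcr2 (-0.88), Cd274 (-0.94), which encodes PD-L1, and Lgals3 (-2.56). The broadly expressed Sirpa and Cd47 were both at 0.02 (SE 0.09 and 0.11).

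Sterol genes bear on the known actions of 25-hydroxycholesterol. In the cholesterol synthesis list 22 of 24 genes were above 0 (median 0.20), 5 had an unadjusted p under 0.05 with the higher tau effect in Ch25h-/-, and 0 were called by edgeR. Insig1, which retains SREBP in the endoplasmic reticulum, was at 0.41 (SE 0.14, adjusted p = 0.651, edgeR), and others with an unadjusted p under 0.05 included Srebf2 (0.24), Stard4 (0.32) and Sqle (0.33). In neither genotype did a member pass the threshold for tau, with medians of -0.10 in Ch25h+/+ and 0.09 in Ch25h-/-.

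LXR targets gave a median of -0.06 over 14 genes, 11 of them below 0. An unadjusted p under 0.05 was reached by 4, and by 2 when Ch25h+/+ Tau- replicate 4 or, separately, Ch25h+/+ Tau+ replicate 4 was left out. Apoe, the main apolipoprotein of the brain and also a microglial response gene, was at 1392, 1612, 1689.9 and 1589 CPM in Ch25h+/+ Tau-, 2623, 2024, 2102 and 3076 CPM in Ch25h+/+ Tau+, 1502, 1275, 1221 and 1209 CPM in Ch25h-/- Tau- and 1464, 1285, 1250.2 and 1477 CPM in Ch25h-/- Tau+. Its interaction was -0.57 (SE 0.17, adjusted p = 0.453, edgeR). The efflux transporter gene Abca1 was at -0.65 (adjusted p = 0.862), Lpl at -0.59 and Srebf1 at -0.31, while Abcg1, another efflux transporter gene, stood at 0.05 (SE 0.13) and Scd1 and Fasn, which serve fatty acid synthesis, at -0.03 and -0.01.

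Myelin genes had a median of -0.03 over 12 genes, from -0.19 to 0.12, with 0 at an unadjusted p under 0.05. That median took both signs as single libraries were left out (-0.19 to 0.11) and was -0.16 without Ch25h-/- Tau+ replicate 1. Excitatory synapse genes had a median of 0.10 over 18 genes, 14 of them above 0. In that list Homer1, a postsynaptic scaffold with an activity-induced short form, fell with tau in Ch25h+/+ (-0.57, adjusted p = 0.0231) and had an interaction of 0.53 (SE 0.18, adjusted p = 0.651, edgeR). Its levels were 255, 282, 267 and 306 CPM in Ch25h+/+ Tau-, 145, 244, 177 and 184 in Ch25h+/+ Tau+, 285, 273, 216 and 239 in Ch25h-/- Tau- and 224, 249, 277 and 236 in Ch25h-/- Tau+. The Ch25h+/+ groups did not overlap and the Ch25h-/- groups did. Immediate early genes, which follow recent neuronal firing, had a median of 0.01 over 15 genes with wide errors (Fos -0.15, SE 0.71), a range of -0.35 to 0.26 as single libraries were left out, and -0.35 without Ch25h-/- Tau+ replicate 1. Their median tau effects were -0.44 in Ch25h+/+ and -0.53 in Ch25h-/-, and no member passed the adjusted threshold, with 1 member at an unadjusted p under 0.05 in Ch25h+/+ and 2 in Ch25h-/-.

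No gene on the opposite side reached the threshold in the edgeR fit of all 16 libraries, while DESeq2 and the fit without the low-count filter each called a few. The smallest p among positive values of well expressed genes belonged to Phtf1, a membrane protein gene, at 0.48 (SE 0.10, adjusted p = 0.1, edgeR). It was between 42.9 and 48.0 CPM in Ch25h+/+ Tau-, between 29.2 and 31.5 in Ch25h+/+ Tau+, between 42.9 and 49.1 in Ch25h-/- Tau- and between 40.3 and 46.7 in Ch25h-/- Tau+, so that here the Ch25h+/+ Tau+ libraries were the lowest. Capza1, an actin capping subunit, was likewise lowest in the 4 Ch25h+/+ Tau+ libraries (0.58, adjusted p = 0.322). Lrrk2, a kinase gene (0.49, adjusted p = 0.211), and Rbpj, the Notch effector (0.85, adjusted p = 0.386), had the lowest mean there, but their Ch25h+/+ Tau+ range overlapped that of a Ch25h-/- group (edgeR for each). Sh2d5, at 0.60 (adjusted p = 0.386, edgeR), had its lowest mean in Ch25h-/- Tau- instead (77.6 CPM, against 78.4 CPM in Ch25h+/+ Tau+). Phtf1, Capza1 and Ctss lie on chromosome 3, which holds 61 genes with an unadjusted p under 0.05 among 908 tested, or 6.72%.

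Prnp, the prion protein gene, had a tau effect without an interaction. It rose with tau in both genotypes by the same amount, 1.10 log2 (SE 0.09 in each, adjusted p = 2.43e-06 in Ch25h+/+ and 9.37e-06 in Ch25h-/-, edgeR). It was between 748 and 839 CPM in Ch25h+/+ Tau-, between 1505 and 1935 in Ch25h+/+ Tau+, between 708 and 833 in Ch25h-/- Tau- and between 1414 and 1821 in Ch25h-/- Tau+, and the interaction was 0.00 (SE 0.13). Mapt, the mouse tau gene, had an interaction of 0.15 (SE 0.10, adjusted p = 1) at 444 to 591 CPM over all libraries. Every Tau+ library stood above every Tau- library for Prnp. Whether all of these reads came from the mouse's own Prnp gene was not tested.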

How the data were processed

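The authors deposited 1 table of raw counts per gene, 54532 entries by 16 libraries, whole numbers with no normalization. Per the labels' protocols, RNA came from a PureLink kit and sequencing used SMARTER mRNA libraries. Per the submitters' processing notes, reads were aligned with STAR 2.7 to GRCm38 (mm10). The counting program, its annotation and its strand setting are not given in the sources used here, so overlapping or antisense genes and near-identical copies are uncertain. Positions and GC content came by symbol from GENCODE (98.9% of entries matched).

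Genes were filtered with filterByExpr, which left 17736, with 99.86% to 99.9% of each library's counts. They were tested with edgeR 4.0.16 (R 4.3.3; quasi-likelihood F test, two-sided, TMM) in 1 fit of 16 libraries with a mean per group, with Benjamini-Hochberg adjustment over all genes at 0.05. The contrast was (Ch25h-/- Tau+ minus Tau-) minus (Ch25h+/+ Tau+ minus Tau-). An rRNA transcript above 1000 CPM made a library rRNA-rich. The script was tested on simulated data. No pair of libraries of the same group agreed within sampling noise, and replicates were numbered in record order.

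Gene lists were read by counts and medians, without a test. The comparison and the lists were chosen with earlier results of these data known. Named genes were those past the threshold, Ch25h, Prnp and Mapt, the 2 members of each list with the smallest p, the 5 positive and the 5 next genes by p (mean log2 CPM at or above 1). Other genes were named to show a list's range picked with their values in view. Alternatives were DESeq2 1.42.0, relative log expression scaling, every gene with 1 count or more, only genes averaging 50 counts or more, limma-voom (limma 3.58.1) with quality weights, robust dispersion, 1 surrogate variable (sva 3.50.0), covariates for library class and choroid plexus score, offsets against GC content, and leaving out each library in turn. Some genes that the rule names are not reported here.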

Additional observations from a re-analysis of the deposited data

Results flagged for a closer look

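The interaction test itself marked 6 genes as differing between the Ch25h genotypes: Ctss (-1.19 log2), Rps27rt (-2.90), H2-D1 (-0.84), C1qa (-1.26), Lag3 (-1.29) and Cd74 (-3.41). Their values by library stand in the report.

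Among 238 groups of 4 libraries examined, 15, or 6.3%, held a library far from the other 3 relative to the group's range, where chance alone gives about 1 in 20. In Ch25h+/+ Tau- these were Lag3 (highest library 11.3 CPM, next 8.75), Parp14 (lowest 1.91 CPM, next 2.95) and the class I score (highest 4.19, next 3.96). In Ch25h+/+ Tau+ they were Irgm1 (highest 19.6 CPM, replicate 1, next 14.7), Lgals9 (lowest 8.27 CPM, next 9.76), and in replicate 4 the disease-associated microglia score (5.84, next 5.20) and the reactive astrocyte score (4.09, next 3.61). In Ch25h-/- Tau- they were Spi1 (highest 4.41 CPM, next 3.63) and the cathepsin and lysosome score (lowest 5.42, next 5.56). In Ch25h-/- Tau+ the interferon-stimulated score (2.57, next 2.16), the checkpoint score (3.94, next 3.73) and Cxcl16 (2.86 CPM, next 1.76) were highest in replicate 2. Replicate 4 of that group was highest for H2-Ab1 (3.87 CPM, next 2.47), Ddx58 (6.62 CPM, next 5.52) and Abca1 (46.3 CPM, next 33.3).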

How the results depend on the processing

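All 6 interactions past the threshold stayed negative under the 10 other alternatives and the 16 fits without 1 library. Ctss and C1qa were called in 10 of 10 other alternatives, H2-D1 in 9, Rps27rt in 8, Lag3 and Cd74 in 7. Of 468 list medians under alternatives 21 moved by more than the spread between replicates, and the immediate early and myelin medians, near 0, took both signs. The number of genes called was 57 with no filter beyond 1 count (52 lower, 5 higher), 55 by DESeq2 (51 lower, 4 higher), 11 with 1 surrogate variable, 11 with the choroid plexus covariate, 3 with the library class covariate (2 of them among the 6) and 0 to 22 without 1 library, where leaving out Ch25h+/+ Tau+ replicate 4 or, separately, Ch25h-/- Tau- replicate 4 gave 1 higher gene. Genes at an unadjusted p under 0.05 numbered 1379 without the filter and 1186 by limma-voom. The tau effect in Ch25h+/+ called 424 genes by DESeq2, 498 by limma-voom and 160 to 299 without 1 library (160 without Ch25h+/+ Tau+ replicate 4, 176 without Ch25h+/+ Tau- replicate 1), with 2565 at an unadjusted p under 0.05 by limma-voom. In Ch25h-/- it called 28 without the filter (1496 unadjusted), 2 at a mean of at least 50 counts (417 unadjusted), 14 by DESeq2 and 6 to 13 without 1 library (13 without Ch25h-/- Tau- replicate 4). A mean of at least 50 counts, taken over all libraries, left fewer members and let genes in through 1 high group. The medians there were -3.28 for MHC class II, -0.76 for complement, -0.61 for interferon-stimulated, -0.01 for chemokine and -0.57 for checkpoint genes. The chemokine median was -0.65 by limma-voom, -0.54 with the class covariate and -1.0 with the choroid plexus covariate, and the LXR median -0.15 by limma-voom. Without 1 library medians were -0.66 to -0.40 for complement, -1.06 to -0.75 for reactive astrocyte, -0.98 to -0.11 for chemokine and -0.17 to -0.05 for LXR genes. Prnp, near 0, changed sign: -0.01 with relative log expression and with DESeq2, -0.00 without the filter, -0.02 at 50 counts and with the class covariate, -0.07 to 0.06 without 1 library and -30.3 CPM as a difference of mean CPM. Where values moved, the cause was not tested, except that fewer genes or libraries entered. Choroid plexus markers ranged from 15.4 to 2771 CPM between libraries. No paired analysis was possible because the labels give no replicate numbers.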

Other observations

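Chromosome 14 resembled chromosome 3 in its share of genes with an unadjusted p under 0.05 for the interaction: 41 of 607, or 6.75%. Of these, 35 had a negative interaction and 6 a positive one. Chromosome 3 had 34 and 27. The other chromosomes ranged from 2.9% (X) to 4.84% (17).

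The 6 striatal markers all had positive values (median 0.29, 0 at an unadjusted p under 0.05), with sums between 175 and 275 CPM in Ch25h+/+ Tau-, between 159 and 178 in Ch25h+/+ Tau+, between 156 and 199.5 in Ch25h-/- Tau- and between 133 and 161 in Ch25h-/- Tau+. The 6 choroid plexus markers had a median of 0.80, with 0 at an unadjusted p under 0.05.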
